A study of Mus musculus with 12 samples.

Results

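The Hox genes of the 4 mouse clusters were described here by cluster (a, b, c and d), by paralogue number and by their level in wild-type embryoid bodies. They were taken by gene symbol (Hox, a cluster letter and a number), and 38 of the 52636 genes of the deposited count tables are described: 10 of the a cluster, 10 of the b cluster, 9 of the c cluster and 9 of the d cluster. RNA sequencing covered 12 libraries of E14, a mouse embryonic stem cell (ESC) line. The groups were wild-type (WT) ESCs, ESCs with a knockdown (KD) of the circular RNA circKat6b-e2 by an shRNA, WT embryoid bodies (EBs, cell aggregates in which ESCs differentiate) at day 6, and KD EBs at day 6, with 3 libraries in each of the 4 groups. All ESCs had been kept on gelatin in medium with serum, LIF and inhibitors of MEK and GSK3, which hold the undifferentiated state. Neither the presence of a control shRNA in WT cells nor the clonal origin of KD cells is given in the labels.

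Hox genes encode homeodomain transcription factors that give cells along the head-to-tail axis their positional identity. Genes of equal number in different clusters are paralogues, and within a cluster all genes are transcribed in the same direction, with low numbers at the 3′ end. Low-numbered (anterior) genes are switched on early and up to the hindbrain, and high-numbered (posterior) genes later and nearer to the tail, in the trunk, limbs and genital region, an order known as collinearity. Polycomb complexes hold the clusters silent in ESCs, and retinoic acid, WNT, FGF and CDX factors open them during gastrulation.

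In GRCm38, the build of the count tables, the a members spanned chr6:52162417-52260880 (98.5 kb, minus strand), the b members chr11:96194316-96368256 (173.9 kb, plus strand), the c members chr15:102921103-103036852 (115.7 kb, plus strand) and the d members chr2:74668310-74765142 (96.8 kb, plus strand). The promoters of Hoxa10, Hoxb8 and Hoxd11, posterior or central genes that were higher in KD EBs, and of Hoxb1, an anterior gene that was lower, are printed below as examples of windows that hold these motifs. Each line holds the 250 bases before the start site annotated by RefSeq (GRCm38.p6), 5′ to 3′ on the strand of the gene. Capitals mark TTTATG and TTTATT, letters of the kind bound by CDX and posterior HOX proteins, and TGATNNAT, of the kind bound by PBX with a HOX partner, on either strand. The windows lie at chr6:52240855-52241104 (minus strand), chr11:96281655-96281904, chr2:74679308-74679557 and chr11:96365508-96365757 (plus strand).
Hoxa10: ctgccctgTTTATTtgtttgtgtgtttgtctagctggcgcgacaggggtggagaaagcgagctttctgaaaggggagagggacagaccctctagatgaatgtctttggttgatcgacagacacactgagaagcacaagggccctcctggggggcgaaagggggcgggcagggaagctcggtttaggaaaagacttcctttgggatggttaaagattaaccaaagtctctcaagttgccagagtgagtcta
Hoxb8: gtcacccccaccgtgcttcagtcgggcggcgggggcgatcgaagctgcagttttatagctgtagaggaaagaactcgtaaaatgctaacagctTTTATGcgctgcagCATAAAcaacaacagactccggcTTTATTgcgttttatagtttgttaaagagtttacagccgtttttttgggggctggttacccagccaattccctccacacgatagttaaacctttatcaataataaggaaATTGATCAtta
Hoxd11: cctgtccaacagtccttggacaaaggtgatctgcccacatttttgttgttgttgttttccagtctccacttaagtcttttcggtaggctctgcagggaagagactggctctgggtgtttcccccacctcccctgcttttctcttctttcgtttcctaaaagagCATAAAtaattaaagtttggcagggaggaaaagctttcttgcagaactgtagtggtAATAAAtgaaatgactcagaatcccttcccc
Hoxb1: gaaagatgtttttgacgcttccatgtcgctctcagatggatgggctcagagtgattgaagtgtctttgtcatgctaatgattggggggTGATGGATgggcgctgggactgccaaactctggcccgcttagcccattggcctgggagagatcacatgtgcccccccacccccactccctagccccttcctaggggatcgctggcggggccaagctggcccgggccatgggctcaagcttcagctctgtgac

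The Hoxb8 window held 2 TTTATG, 1 TTTATT and 1 TGATNNAT, the Hoxd11 window 1 TTTATG and 1 TTTATT, the Hoxa10 window 1 TTTATT and the Hoxb1 window 1 TGATNNAT. RefSeq windows of this kind were found for 22 of the 38 members, 24 windows in all. TTTATG occurred on either strand in 5 of the 24 and in 10.8% of the 32851 windows of all genes, TTTATT in 5 of the 24 and in 18.1%, and TGATNNAT in 4 of the 24 and in 7.7%. CCAAT, the letters bound by NFY, occurred in 14 of the 24 and in 33.8% of all windows. The member windows held a median of 12.5 CG dinucleotides, against 6 over all windows. The printed windows are those of the most 5′ annotated start. A second window of Hoxa10 and of Hoxd11, and the windows of Hoxa5, Hoxa6, Hoxa9, Hoxa11, Hoxa13, Hoxd8, Hoxd9, Hoxd10, Hoxd12 and Hoxd13, which also rose, held neither TTTATG nor TTTATT. These matches describe letters only, and no binding was measured.

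The clusters also hold microRNA genes, which poly-A libraries of this kind do not measure as mature miRNAs. The mature sequences are shown because the miR-196 pair pairs with transcripts of several members. Capitals mark the seed (bases 2 to 8), and sequences are from RefSeq (GRCm38.p6).
mmu-miR-196a-5p: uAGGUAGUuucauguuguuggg
mmu-miR-196b-5p: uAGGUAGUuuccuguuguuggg
mmu-miR-10a-5p: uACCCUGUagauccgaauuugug
mmu-miR-10b-5p: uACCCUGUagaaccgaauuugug
Hoxb8 site: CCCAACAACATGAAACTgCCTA

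miR-196a and miR-196b share the seed AGGUAGU, and miR-10a and miR-10b share ACCCUGU. Mir196b lies within the annotated Hoxa9 gene at chr6:52230129-52230150, Mir196a-1 between Hoxb13 and Hoxb9 at chr11:96265187-96265208, Mir10a at chr11:96317186-96317208 and Mir10b at chr2:74726074-74726096. The Hoxb8 line is the stretch of its 3′ untranslated region (chr11:96284888-96284909, plus strand) that best matches miR-196a, with 21 of 22 bases Watson-Crick paired and the remaining base, which faces a U, in lower case. A match to the miR-196 seed was found in the annotated 3′ untranslated regions of 8 of 38 members, and in 6.8% of 21131 genes. These 8 were Hoxa4, Hoxa5, Hoxa7 (with 4 matches), Hoxa9, Hoxb1, Hoxb6, Hoxb7 and Hoxc8 (with 2).

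Libraries held 25.4 to 37.8 M counts on 20021 to 23548 genes. Levels are given as CPM (counts scaled to a common library size, with TMM normalization over the 12 libraries) per kilobase of annotated exon, so that genes can be compared. Stage of differentiation was the main axis of the data (83.0% of the variance on the leading principal component). ESC WT replicate 2 stood apart from its group: chi-square per gene was 55.4 and 56.0 for the pairs with it and 4.78 to 9.11 for all other replicate pairs. Kat6b, from which circKat6b-e2 is named, was at 78.6 ± 11.7 CPM in ESC WT, 104 ± 4.31 in ESC KD, 30.0 ± 0.883 in EB WT and 61.6 ± 0.963 in EB KD (SD, n = 3). This is linear mRNA and no check of the knockdown, because circular RNA has no poly-A tail to be selected by.

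Most Hox transcripts were higher in KD than in WT EBs. Summed over the 38 members, the level was 54.6, 54.4 and 55.7 CPM per kb in the EB WT libraries and 182, 186 and 186 in the EB KD libraries, a ratio of means of 3.36. Of the 37 members that passed the filter on low counts, 29 rose, 2 fell (Hoxb1 and Hoxb4) and 6 were not called (Hoxa2, Hoxa3, Hoxa4, Hoxb2, Hoxc4 and Hoxd1) at a Benjamini-Hochberg adjusted p under 0.05 by edgeR's quasi-likelihood test over all genes. Hoxb13 was not tested, with 0 to 4 counts per EB library. The share of all 17355 tested genes called in this comparison was 55.7%, with 28.0% higher and 27.7% lower. The median log2 fold change (KD minus WT) was 1.87 over the members and 0.002 over all tested genes. It was above 1 for 27 members and above 2 for 16. Where groups are said below not to overlap, this describes the libraries of that gene. The share of all genes without overlap is not given here. In bulk RNA, more cells with an active Hox cluster and more transcript per cell cannot be told apart.

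**Figure D1:**
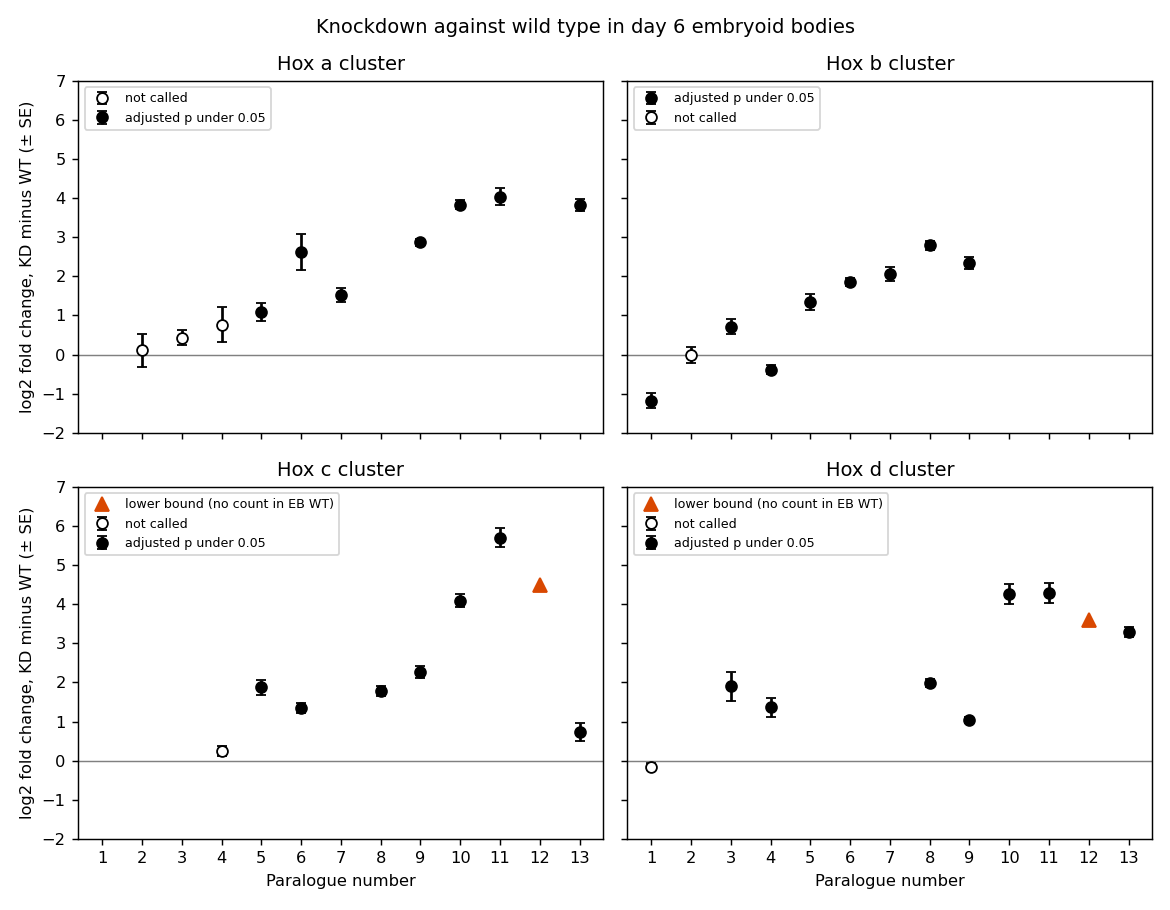
Log2 fold change of KD against WT in day 6 EBs (vertical axis, ± SE) against paralogue number (horizontal axis), with a panel for each cluster. Filled points passed an adjusted p of 0.05, open points did not, and triangles are lower bounds for Hoxc12 (4.49) and Hoxd12 (3.60), which had no count in EB WT. In the a, c and d clusters the highest values are those of paralogues 10 to 13, apart from Hoxc13 at 0.72.

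In the a cluster 7 of 10 members rose, none fell, and the median log2 fold change was 2.08. Hoxa5, needed for lung and lower neck structures, was at 0.929, 1.14 and 1.22 CPM per kb in EB WT and at 3.12, 2.25 and 1.93 in EB KD. The KD libraries lay above the WT libraries, with a log2 fold change of 1.09 (SE 0.22, edgeR adjusted p = 1.02e-04). This call was lost when all 12 libraries were fitted together (1.15, edgeR adjusted p = 0.136). Hoxa7, a gene of the thoracic region, went from 0.869, 0.806 and 0.630 CPM per kb in WT to 2.00, 2.46 and 2.44 in KD without overlap (1.52, SE 0.19, edgeR adjusted p = 4.41e-08).

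The posterior genes of the a cluster changed most within it. Hoxa9, a gene of trunk patterning and of blood progenitors, was at 1.17, 1.44 and 1.13 CPM per kb in EB WT and at 9.25, 9.72 and 9.47 in EB KD. Its log2 fold change was 2.87 (SE 0.09, edgeR adjusted p = 1.62e-22). Hoxa10, which acts in the lumbar spine and uterus, was at 0.828, 0.717 and 0.620 in WT and 11.01, 10.62 and 10.63 in KD, the third highest Hox level in KD EBs and the 21st in WT EBs. Its log2 fold change was 3.84 (SE 0.11, edgeR adjusted p = 3.04e-23). Hoxa11, a gene of the forearm and of the uterus, was at 0.512, 0.248 and 0.243 in WT and 5.26, 5.97 and 6.04 in KD (4.04, SE 0.21, edgeR adjusted p = 6.02e-16). It shares 35.0% of its exon bases with the antisense gene Hoxa11os. With no option for strand or overlapping reads, reads on shared bases go to neither gene, so its level per kb may be too low. Hoxa13, a gene of digits, hindgut and genital tract, was at 0.832, 0.545 and 0.459 in WT and 9.34, 9.0 and 8.64 in KD (3.82, SE 0.15, edgeR adjusted p = 1.09e-18). For all 4 of these genes every KD library exceeded every WT library.

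Of the other a members, Hoxa6 had 12, 10 and 5 counts in WT and 77, 40 and 50 in KD and rose by 2.63 on the log2 scale (SE 0.46, edgeR adjusted p = 1.43e-05). Hoxa2, which patterns the second pharyngeal arch, overlapped between groups (log2 fold change 0.11, SE 0.42). Hoxa3 (0.43, SE 0.20, edgeR adjusted p = 0.0678) and Hoxa4 (0.77, SE 0.46, edgeR adjusted p = 0.157) were not called, although their KD libraries lay above their WT libraries. Without EB WT replicate 2, Hoxa3 passed (0.55, edgeR adjusted p = 0.0456). Hoxa2, Hoxa3 and Hoxa4 share 15.0%, 27.1% and 16.0% of their exon bases with other genes.

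**Figure D2:**
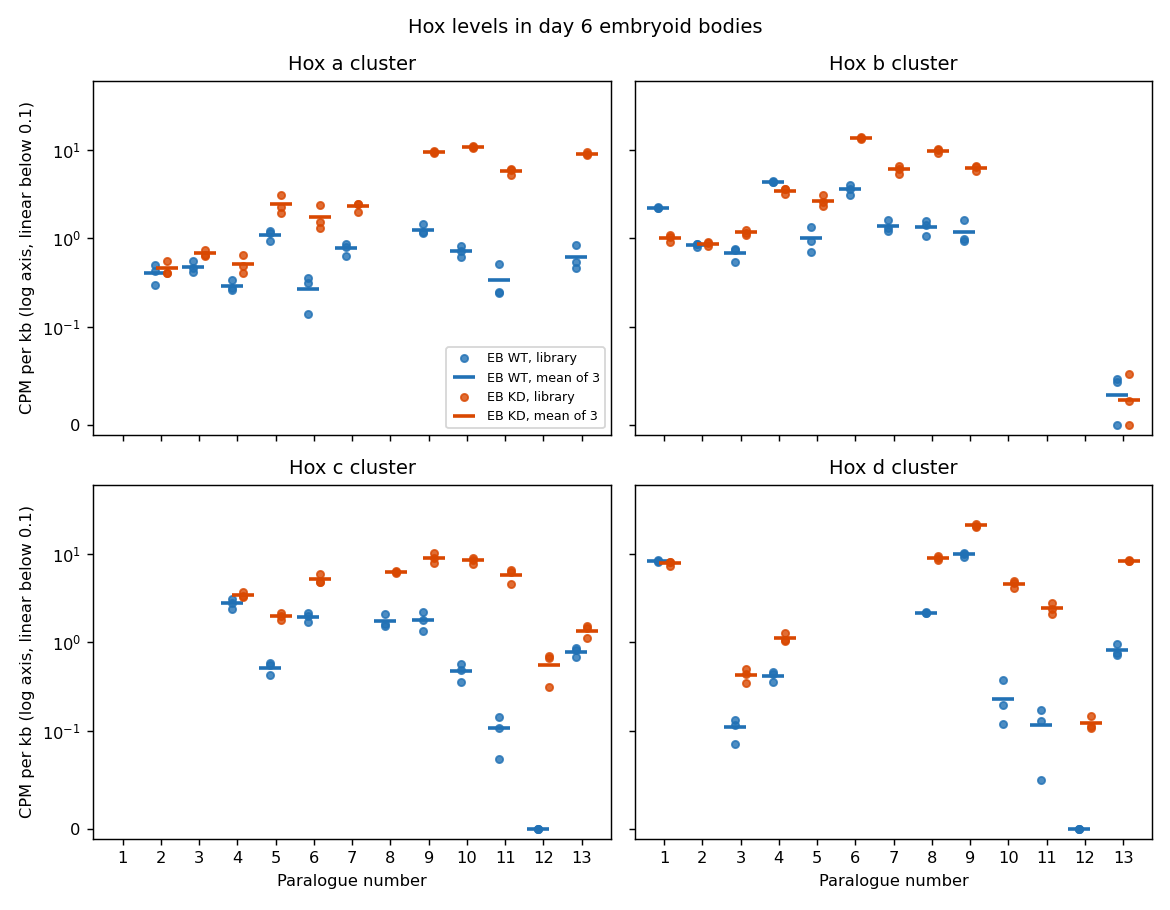
Level of each member (CPM per kb, log axis that turns linear below 0.1) against paralogue number in day 6 EBs, with a point for each library and a bar for the mean of 3, in blue for WT and orange for KD. The groups overlap for Hoxa2, Hoxb2 and Hoxb13, WT lies above KD for Hoxb1, Hoxb4 and Hoxd1, and KD lies above WT for every other member. The share of all genes without overlap is not given, and 55.7% of all tested genes were called in this comparison.

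In the b cluster 6 of the 9 members tested rose and 2 fell, with a median of 1.34. Hoxb1, which sets the identity of a hindbrain segment, was at 2.18, 2.25 and 2.17 CPM per kb in EB WT and at 0.915, 1.04 and 1.09 in EB KD. It fell by 1.18 on the log2 scale (SE 0.19, edgeR adjusted p = 4.58e-06), with every KD library below every WT library. Hoxb4, a gene of the posterior hindbrain and of blood stem cells, was at 4.29, 4.32 and 4.39 in WT and 3.19, 3.58 and 3.63 in KD. It fell by 0.38 (SE 0.12, edgeR adjusted p = 0.00537), also without overlap, and this call was lost in the fit of all 12 libraries (-0.32, edgeR adjusted p = 0.373). Between these genes, Hoxb2 overlapped between groups (log2 fold change -0.005, SE 0.21) and Hoxb3 rose by 0.71 (SE 0.19, edgeR adjusted p = 0.00237). Hoxb3 shares 52.9% and Hoxb2 27.3% of its exon bases with Hoxb3os, and the call of Hoxb3 was lost in the fit of all 12 libraries (0.77, edgeR adjusted p = 0.0903).

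The central and posterior b genes rose. Hoxb6, an early gene of lateral mesoderm, was at 3.08, 3.62 and 3.98 CPM per kb in EB WT and 13.8, 13.5 and 13.1 in EB KD, the second highest Hox level there. Its log2 fold change was 1.86 (SE 0.10, edgeR adjusted p = 2.49e-16). Hoxb7, its thoracic neighbour, was at 1.30, 1.22 and 1.63 in WT and 6.00, 5.39 and 6.65 in KD (2.06, SE 0.17, edgeR adjusted p = 1.31e-11). Hoxb8, known from myeloid progenitors, was at 1.56, 1.42 and 1.07 in WT and 9.84, 10.3 and 9.21 in KD (2.80, SE 0.12, edgeR adjusted p = 7.66e-19). Hoxb9, a gene of the rib-bearing trunk, was at 0.971, 0.932 and 1.61 in WT and 5.79, 6.53 and 6.42 in KD (2.35, SE 0.16, edgeR adjusted p = 3.27e-12). None of these 4 genes overlapped between groups. Hoxb5 rose by 1.34 (SE 0.20, edgeR adjusted p = 1.25e-06).

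In the c cluster 8 of 9 members rose and none fell, with a median of 1.87. Hoxc4, the most anterior gene of this cluster, was at 3.12, 2.40 and 2.81 CPM per kb in EB WT and 3.28, 3.72 and 3.33 in EB KD and was not called (0.25, SE 0.14, edgeR adjusted p = 0.122). Hoxc6, a gene of the upper thorax, was at 1.69, 1.98 and 2.16 in WT and 4.75, 4.81 and 5.90 in KD (1.35, SE 0.14, edgeR adjusted p = 8.57e-10). Hoxc9, which acts in the thoracic spinal cord, was at 1.77, 1.33 and 2.23 in WT and 10.2, 7.85 and 8.88 in KD (2.27, SE 0.15, edgeR adjusted p = 9.23e-11). Hoxc5 and Hoxc8 rose by 1.87 and 1.78. The called members of this cluster did not overlap between groups.

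Hoxc10 and Hoxc11, genes of the lumbar region and hindlimb, had low levels in EB WT. Hoxc10 was at 0.491, 0.353 and 0.569 CPM per kb in WT and 7.64, 8.62 and 9.02 in KD (4.09, SE 0.17, edgeR adjusted p = 3.72e-19). Hoxc11 had 11, 8 and 6 counts in WT and 347, 468 and 473 in KD, or 0.142, 0.107 and 0.0717 against 4.62, 6.64 and 6.24 CPM per kb. Its log2 fold change of 5.70 (SE 0.25, edgeR adjusted p = 1.20e-18) was the highest among members with counts in both groups. Hoxc12 had no count in the 3 EB WT libraries and 12, 25 and 26 in KD, which against a floor of 3 counts over the WT group was at least 22.4-fold higher (log2 4.49, edgeR adjusted p = 7.58e-06). Hoxc13, a gene of hair and nails, was at 0.677, 0.855 and 0.824 in WT and 1.10, 1.51 and 1.44 in KD. It rose by 0.72 (SE 0.23, edgeR adjusted p = 0.00876), less than the other posterior members.

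In the d cluster 8 of 9 members rose and none fell, with a median of 1.99. Hoxd1, a gene of pain-sensing neurons, had the second highest Hox level in EB WT, at 8.20, 8.57 and 8.21 CPM per kb, and lay at 7.27, 8.13 and 7.99 in EB KD. It was not called (-0.15, SE 0.09, edgeR adjusted p = 0.163), although its KD libraries lay below its WT libraries. Hoxd8, a gene of the trunk, was at 2.13, 2.15 and 2.23 in WT and 8.57, 9.40 and 8.95 in KD (1.99, SE 0.10, edgeR adjusted p = 2.87e-17). Hoxd9, which acts in the trunk and upper limb, had the highest Hox level in EBs of both genotypes, at 9.29, 10.3 and 9.89 in WT and 20.7, 22.0 and 20.3 in KD (1.03, SE 0.07, edgeR adjusted p = 1.07e-13). Hoxd3 and Hoxd4 rose by 1.90 and 1.36. They share 62.8% and 52.3% of their exon bases with each other and with antisense genes, so their levels per kb may be too low.

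The posterior d genes are known for the order in which they pattern limbs and genitalia. Hoxd10 was at 0.373, 0.193 and 0.120 CPM per kb in EB WT and 4.65, 4.15 and 4.98 in EB KD (4.27, SE 0.26, edgeR adjusted p = 2.47e-14). Hoxd11, a gene of the forearm, had 8, 20 and 30 counts in WT and 329, 411 and 374 in KD, or 0.0495, 0.128 and 0.172 against 2.1, 2.8 and 2.37 CPM per kb (4.30, SE 0.26, edgeR adjusted p = 1.95e-13). Neither gene overlapped between groups. Hoxd12 had no count in EB WT and 10, 10 and 14 in EB KD, at least 12.1-fold higher against the floor of 3 counts (log2 3.60, edgeR adjusted p = 2.43e-04). Hoxd13, needed for digits, rose by 3.28 (SE 0.13, edgeR adjusted p = 1.24e-19), from 0.819 ± 0.126 to 8.33 ± 0.118 CPM per kb (SD, n = 3).

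Ordered by paralogue number, the median log2 fold change in EBs was -0.66 for paralogue 1, 0.05 for 2, 0.71 for 3, 0.51 for 4, 1.34 for 5, 1.86 for 6, 1.79 for 7, 1.99 for 8, 2.31 for 9, 4.09 for 10, 4.30 for 11 and 3.28 for 13. Both paralogues of number 12 had no count in WT. Of the 7 anterior genes (1 to 3) 2 rose and 1 fell, of the 15 central genes (4 to 8) 12 rose and 1 fell, and of the 15 posterior genes (9 to 13) that were tested all 15 rose. The class medians were 0.11, 1.52 and 3.84. Hoxc12 and Hoxd12 passed the filter through KD libraries only, so that their inclusion required a difference. Hoxa6, Hoxc11, Hoxd10 and Hoxd11 each had a WT library under the minimum count of 10 and passed only with the help of KD libraries. The filter favoured a rise among these genes too. Spearman's rho between fold change and paralogue number was 0.95 over 10 genes in the a cluster, 0.93 over 9 in b, 0.48 over 9 in c and 0.78 over 9 in d. The c and d values use fitted changes of Hoxc12 and Hoxd12, and with these at their lower bounds rho was 0.47 in c and 0.73 in d. These are descriptions across neighbouring genes of the same libraries, without a test.

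The make-up of the summed Hox level differed between genotypes in EBs. Anterior genes summed to 13.04 ± 0.416 CPM per kb in EB WT and 12.4 ± 0.501 in EB KD, a ratio of 0.951. Hoxd1 alone held 8.33 and 7.80 of these sums, and in CPM without division by length the ratio was 1.03. Hoxa2, Hoxa3, Hoxb2, Hoxb3 and Hoxd3 share 15.0% to 62.8% of their exon bases with other genes, so the anterior sums may be too low. Central genes summed to 23.6 ± 0.544 and 69.2 ± 0.142, a ratio of 2.93, and posterior genes to 18.3 ± 0.600 and 103 ± 2.23, a ratio of 5.63 (SD, n = 3). The posterior share was 32.8%, 32.9% and 34.0% in the WT libraries and 55.3%, 56.1% and 55.9% in the KD libraries. The anterior share was 23.8% ± 0.985 in WT and 6.72% ± 0.176 in KD. The mean paralogue number, weighted by level, was 5.99 ± 0.0529 in WT and 8.25 ± 0.0170 in KD. By cluster, the ratio of KD to WT was 6.93 for a, 2.70 for b, 4.15 for c and 2.49 for d.

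**Figure D3:**
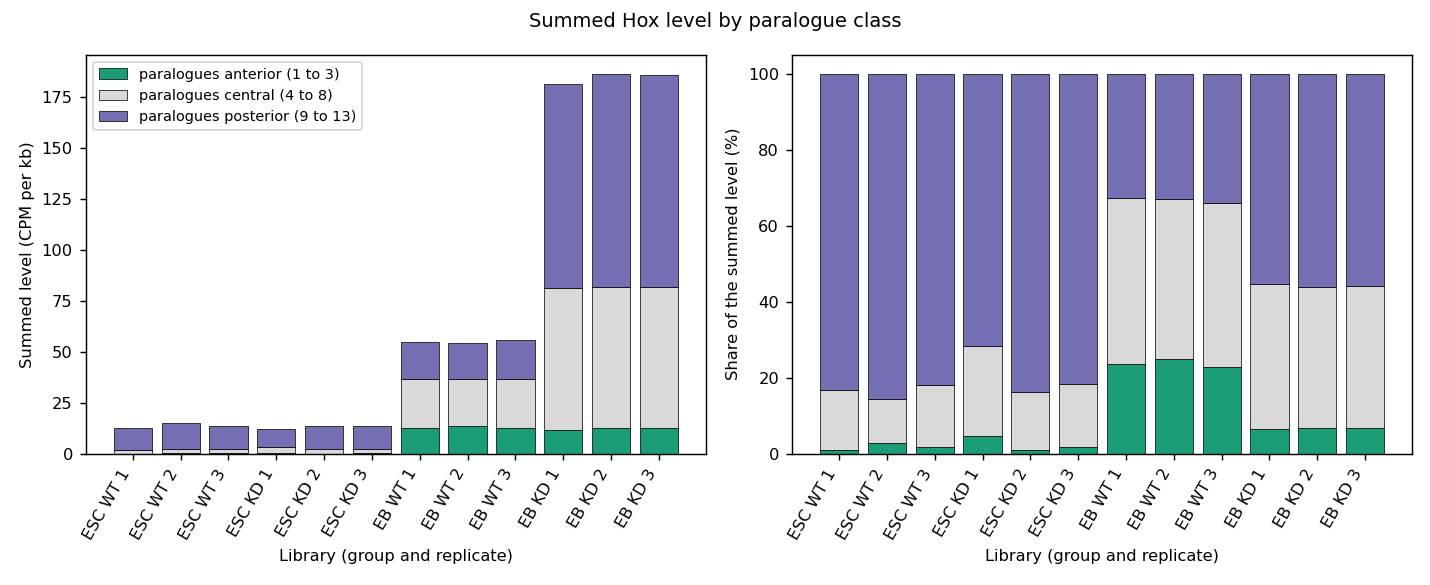
Summed level of the members (left, CPM per kb) and share of that sum in percent (right) in each of the 12 libraries, split into anterior, central and posterior paralogues. EB KD bars reach 182 to 186 CPM per kb against 54.4 to 55.7 in EB WT, and the posterior share lies between 71.6% and 85.7% in ESCs, between 32.8% and 34.0% in EB WT and between 55.3% and 56.1% in EB KD.

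Members were also ranked by their level in EB WT. The 13 highest (1.25 to 9.84 CPM per kb) included both genes that fell, with 9 that rose and a median of 1.78. Of the 13 in the middle (0.471 to 1.17 CPM per kb) 11 rose and none fell, with a median of 1.52. Among the 12 lowest (0 to 0.417 CPM per kb) 11 were tested and 9 rose, with a median of 4.04. Hoxc12 and Hoxd12, at 0 in WT, were tested only because KD libraries held counts. Hoxa6, Hoxc11, Hoxd10 and Hoxd11, also among the lowest, each had a WT library under the minimum count of 10 and needed KD libraries to pass. The ranks use the same EB WT libraries as the fold changes, so a low rank by itself favours a larger change. These medians therefore cannot show whether the change depended on level.

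In undifferentiated ESCs no Hox gene was called between genotypes. Only 10 members passed the filter, and edgeR's quasi-likelihood test called 0 of them, with 0 at an unadjusted p under 0.05 and 0 by DESeq2. The share of all 16081 tested genes called was 0.603%. Their median log2 fold change was -0.02, from -1.29 (Hoxd13) to 1.71 (Hoxb4, SE 0.91, edgeR adjusted p = 0.295). Without ESC WT replicate 2, 13 were tested and 0 called. When all 12 libraries were fitted, 1 member was called, Hoxa10 (edgeR adjusted p = 0.0418), which had no count in ESC WT and 4, 0 and 6 in ESC KD and entered that fit through its EB counts. The summed Hox level was 12.5, 15.0 and 13.4 CPM per kb in ESC WT and 12.1, 13.5 and 13.5 in ESC KD.

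The ESC level came from few genes, mostly posterior ones. Hoxc13 had 397, 274 and 251 counts in ESC WT and 227, 277 and 269 in ESC KD (log2 fold change -0.13, SE 0.16). Hoxb13, a gene of the tail end and prostate, had 140, 138 and 154 counts in WT and 67, 139 and 101 in KD (-0.41, SE 0.28). Hoxb9 had 169, 123 and 135 counts in WT and 105, 114 and 154 in KD (-0.08, SE 0.21). All 16 posterior genes, Hoxc12 among them, made up 83.6% ± 1.96 of the summed level in ESC WT and 79.0% ± 6.48 in ESC KD (SD, n = 3). Hoxa6, Hoxb2, Hoxb5 and Hoxd4 had no count in any ESC library.

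**Figure D4:**
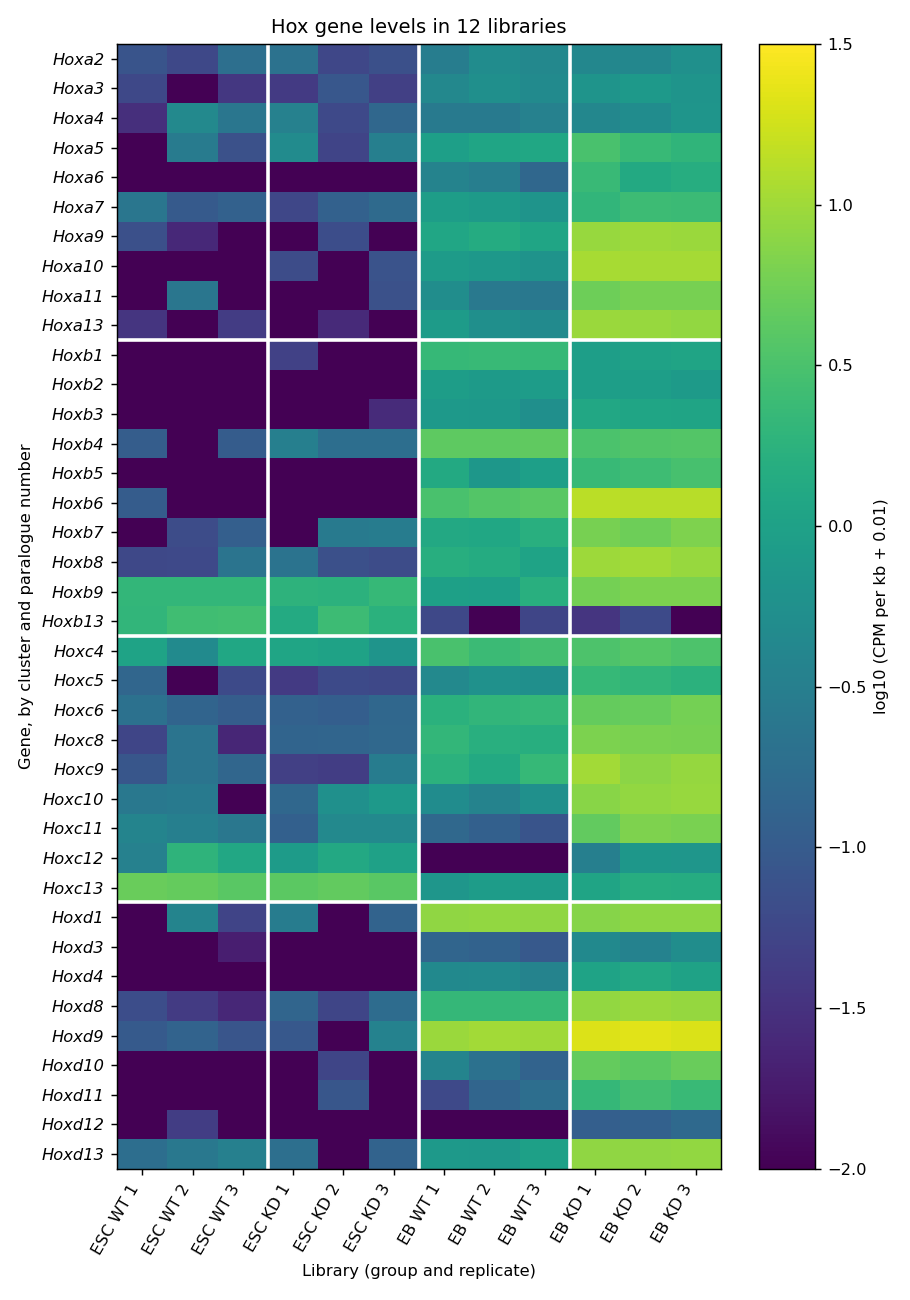
Level of the 38 members (rows, by cluster and paralogue number) in the 12 libraries (columns), as log10 of CPM per kb plus 0.01. Most rows are darker in ESCs than in EBs, while Hoxb13, Hoxc12 and Hoxc13 are brightest in ESCs, and Hoxa9 to Hoxa13, Hoxb9, Hoxc9 to Hoxc11 and Hoxd10 to Hoxd13 are brighter in EB KD than in EB WT.

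From WT ESCs to WT EBs, 31 of the 37 members tested rose, 5 fell and Hoxa4 was not called (edgeR, 4 groups in the same fit). On the ESC libraries alone only 10 members, and 0 of the 7 anterior genes, had passed the filter. The other tested members entered this fit with the help of their EB counts, which favoured a rise among them. The share of all 18975 tested genes called was 79.8%, with 42.5% higher and 37.3% lower. The median log2 fold change (EB minus ESC) was 4.35 for members, or 3.74 with the 10 genes without counts in a group set to their bounds, and 0.172 for all genes. All 7 anterior genes rose (median 6.06), as did 14 of 15 central genes (median 4.35), while 10 posterior genes rose and 5 fell (median 2.29). Hoxb1, with no count in ESC WT and 194, 194 and 209 in EB WT, was at least 137-fold higher against a floor of 3 counts. The 5 that fell were Hoxb13 (-6.24, SE 0.60), Hoxc13 (-2.55, SE 0.19), Hoxc11 (-1.53, SE 0.47), Hoxb9 (-0.81, SE 0.21) and Hoxc12, which had 11, 46 and 32 counts in ESC WT and none in EB WT. Scaling by library size alone moved the median of all genes from 0.172 to 0.704, and the falls of Hoxb9 (-0.28, edgeR adjusted p = 0.239) and Hoxc11 (-1.002, edgeR adjusted p = 0.0621) were then not called. Hoxa11 (2.29, SE 0.84, edgeR adjusted p = 0.0217) and Hoxc10 (1.43, SE 0.61, edgeR adjusted p = 0.0438) were not called by DESeq2, at an adjusted p of 0.202 and 0.0874. Leaving out ESC WT replicate 2 gave 36 called members, as with all libraries.

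From KD ESCs to KD EBs, 33 of the 37 members tested rose and 2 fell, Hoxb13 (-6.12, SE 0.62) and Hoxc13 (-1.64, SE 0.18), while Hoxa4 and Hoxc12 were not called. Here too most members had passed the filter with the help of their EB counts. The share of all genes called by edgeR was again 79.8%, with 42.5% higher. The median was 6.15, or 5.54 with 6 genes at their bounds, and 0.149 for all genes. Hoxb9 rose in KD cells (1.69, SE 0.20, edgeR adjusted p = 1.20e-06), and so did Hoxc11 (4.12, SE 0.38, edgeR adjusted p = 4.44e-08). Both had been lower in EBs than in ESCs among WT cells. Hoxb6 went from 0 counts in all ESC KD libraries to 1009, 922 and 967 in EB KD, at least 659-fold higher against the floor of 3 counts. Posterior members had a median of 6.40, central members 5.48 and anterior members 6.26.

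Whether KD acted differently at the 2 stages was tested as an interaction term in the same fit, and 16 of 37 members were called, 15 with a higher effect in EBs and Hoxb4 with a lower one (median 1.36, against 0.031 for all genes). The share of all genes called was 23.0%, with 12.8% higher. By class, 10 posterior, 5 central and 0 anterior members had a higher effect in EBs. Many of these values rest on a handful of ESC counts: without ESC WT replicate 1 the count was 10, and without ESC WT replicate 2 it was 12. Hoxb9 is the called member with most ESC counts after Hoxc13, at 105 to 169 per library (2.5, SE 0.29, edgeR adjusted p = 2.13e-05).

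Regulators of Hox clusters were taken as lists, chosen with earlier results of these data known. Of all 17355 genes tested between KD and WT EBs, 55.7% were called, with 28.0% higher and 27.7% lower. List counts near these shares are no result about a list. Of 9 tested activators (CDX factors and others) 5 rose and 2 fell in KD EBs, with a median of 0.20. Cdx2, which drives trunk Hox genes, was at 27.2 ± 1.06 CPM in EB WT and 57.1 ± 0.648 in EB KD (SD, n = 3) and rose by 1.01 (SE 0.06, edgeR adjusted p = 3.21e-15). Gdf11, a secreted factor that promotes posterior identity, rose by 1.12 (SE 0.10). Fgf8, a growth factor of the tailbud, fell by 1.63 (SE 0.11), and Wnt3, a signal of the primitive streak, by 0.96 (SE 0.08). Of 18 genes of the retinoic acid pathway 4 rose and 6 fell (median -0.20). Its synthesis gene Aldh1a2 rose by 1.48 (SE 0.25), while the binding protein Crabp1 fell by 2.27 (SE 0.06), the receptor Rxrg by 2.01 (SE 0.51) and the degrading enzyme Cyp26b1 by 1.35 (SE 0.21). Cyp26a1, a more abundant degrading enzyme named after its values were seen, rose by 0.94 (SE 0.06), from 31.2 ± 0.361 to 62.2 ± 3.71 CPM (SD, n = 3).

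TALE homeodomain proteins bind DNA together with HOX proteins. Of the 9 tested, 4 rose and 4 fell (median 0.12), among them Meis1 (1.06, SE 0.08) and Pknox1 (0.84, SE 0.10) higher and Pknox2 (-0.94, SE 0.08) and Pbx4 (-0.85, SE 0.20) lower. Of 22 genes of Polycomb complexes 9 rose and 6 fell (median 0.03), with Phf19 (1.64, SE 0.19), Cbx8 (0.995, SE 0.13) and Bmi1 (0.93, SE 0.08) higher and Pcgf1 (-0.39, SE 0.12) lower. Their summed level was 1616 to 1667 CPM in EB WT and 1662 to 1708 in EB KD. Of 4 tested ParaHox and other trunk homeobox genes none was called by edgeR, with a median of 0.43.

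Transcripts antisense or internal to the clusters were measured without strand. Of 11 tested, 6 rose and 2 fell (median 0.75): Hoxa11os rose by 3.85 (SE 0.35), Halr1, a transcript beside the a cluster, by 3.34 (SE 0.64), Hoxb5os by 1.90 (SE 0.27) and Hoxd3os1 by 1.73 (SE 0.47). Hotair, a transcript of the c cluster between Hoxc11 and Hoxc12 that was singled out after its values were seen, had no count in EB WT and lay at 0.511, 0.373 and 0.400 CPM in EB KD. Genes flanking the clusters had a median of 0.04 over 22 tested, of which 10 rose and 4 fell. Evx2, a homeobox gene next to Hoxd13, was at 0.208, 0.189 and 0.241 CPM in EB WT and 3.74, 5.16 and 5.52 in EB KD and rose by 4.41 (SE 0.31, edgeR adjusted p = 1.65e-13). It too had an EB WT library under the minimum count of 10 and passed the filter only with the help of KD libraries. Calcoco2, an autophagy receptor, rose by 2.59 (SE 0.33), Atf2 by 0.50 (SE 0.05), and Nfe2l3 fell by 1.66 (SE 0.23). The Calcoco2 level was 70.0 CPM in ESC WT, 0.586 in EB WT and 3.72 in EB KD. Evx1, next to Hoxa13 and given as the other Evx gene after its value was seen, rose by 0.46 (SE 0.10).

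Markers of cell types moved with genotype beside the Hox genes, and their part in the Hox differences was not tested. Of all genes tested in EBs, 28.0% were called higher and 27.7% lower. Lateral plate and limb mesoderm markers rose in 6 of 7 and fell in 1, with a median of 2.19. Their sum was 888 to 901 CPM in EB WT and 1026 to 1068 in EB KD. Tbx4 (3.63), Pitx1 (3.47), Prrx1 (2.20) and Hand2 (2.19), factors of hindlimb, limb and heart mesoderm, were higher. Hand1, the most abundant of the 7 in EBs of both genotypes, was the marker that fell. It was named after its values were seen, and its mean was 770 CPM in EB WT and 509 in EB KD. Fibroblast markers rose in 4 of 5 (summed 28.6 to 31.4 CPM in EB WT and 881 to 909 in EB KD): Col3a1 by 6.19, Lum by 5.81, Postn by 4.51 and Dcn by 4.06, while Thy1 fell by 2.07. In ESC KD, Col3a1, Lum, Dcn and Postn were at 0 in all 3 libraries, while in ESC WT only Postn was. Posterior streak and tailbud markers rose in 3 and fell in 1 of 5 tested (51.6 to 56.0 CPM in EB WT, 95.1 to 97.0 in EB KD). Nkx1-2 was 2.90 higher on the log2 scale. Cdx2 rose from 27.2 ± 1.06 to 57.1 ± 0.648 CPM, and Fgf8 fell from 18.7 ± 1.75 to 6.31 ± 0.331 (SD, n = 3). Cdx4 and Wnt3a of that list were too low to test.

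ES cell markers rose in 5 of 6 (summed 135 to 139 CPM in EB WT and 227 to 245 in EB KD, against 2750 to 3256 in ESC WT), among them Esrrb (2.64) and Zfp42 (1.41). Hindbrain and spinal cord markers rose in 1 of 3 tested, Nkx6-1 (2.61), with sums over 4 markers of 2.42 to 2.71 CPM in EB WT and 8.35 to 8.58 in EB KD, and Olig2 at 0 in EB WT. Paraxial mesoderm markers rose in 1 of 4, Pax3 (1.21), with sums of 4.53 to 8.65 and 11.7 to 15.1 CPM. Neural crest markers rose in 2 of 3, with Foxd3 2.09 higher and Sox10 4.13 lower on the log2 scale (46.1 to 49.5 against 67.5 to 68.7 CPM). Ets1 made up most of that sum, at 39.9 CPM in EB WT and 62.9 in EB KD, while Sox10 was at 6.37 and 0.383. Extraembryonic endoderm markers rose in 3 and fell in 1 of 5 (299 to 312 against 416 to 443 CPM), gut endoderm markers rose in 1 and fell in 2 of 4 (375 to 388 against 266 to 276 CPM), trophoblast markers rose in 2 and fell in 2 of 4 (93.5 to 96.6 against 125 to 130 CPM), and 2 tested forebrain markers were not called (22.3 to 22.5 against 22.5 to 24.4 CPM). Within the trophoblast sum Cdx2, also on the activator and tailbud lists, went from 27.2 CPM in EB WT to 57.1 in EB KD.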

How the data were processed

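RNA was sequenced as paired reads from poly-T selected mRNA, per the labels' protocols. The deposited values are raw counts per gene, which the authors made with featureCounts 2.0.3 from HISAT2 2.1.0 alignments to mm10, per the submitters' processing notes, which also name DESeq2 1.18.1. Per the file headers, the annotation was Ensembl's for GRCm38, both ends had to map, and no strand option, no option to count pairs and no option for multiply mapped or overlapping reads was set. Reads that overlap exons of several genes are then not counted, so levels per kb of members that share exon bases may be too low. Between 61.7% and 68.7% of counts from 1 to 10 were even, so mates were counted singly and counts overstate fragments. The floor of 3 counts then stands for fewer than 3 fragments, and the lower bounds on fold change taken against it may be too high. Symbols were matched for 52403 of 52636 genes. The members and lists were chosen with earlier results of these data known. Of 39 genes with the Hox symbol pattern, 38 are described; 1 gene of that pattern and 2 genes of the lists are not reported here, and list counts were computed without them.

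Within a stage, KD and WT libraries were compared by edgeR 4.0.16 in R 4.3.3 (quasi-likelihood F-test, TMM, a minimum count of 10 and minimum total of 15, robust, no covariate). EBs against ESCs, and the interaction of knockdown and stage, came from 1 fit of 12 libraries in 4 groups. P-values were adjusted by Benjamini-Hochberg over all tested genes and called under 0.05. Each SE was derived from the fold change and its F statistic. Scripts were tested on simulated data. No replicates held identical values. Values in full per library were given, in each cluster, for the 3 members highest in EB WT, the 3 with the largest called change in EBs every member that fell and every member called in ESCs; from each list up to 4 called genes with the largest change and at least 1 CPM in a group were named. Alternatives were DESeq2 1.42.0, library size without TMM, no filter, a replicate block, a fit of all 12 libraries and leaving out each library. Same-numbered WT and KD libraries did not deviate together (r from -0.017 to 0.019), so the numbers were not taken as pairs.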

Additional observations from a re-analysis of the deposited data

Results flagged for a closer look

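The KD effect differed between EBs and ESCs (edgeR, adjusted p under 0.05 for the difference itself) for 16 members. The difference, KD effect in EBs minus KD effect in ESCs on the log2 scale, was 2.05 for Hoxa7, 3.49 for Hoxa9, 5.56 for Hoxa11 and 5.5 for Hoxa13 in the a cluster. In the b cluster it was -1.98 for Hoxb4, 6.22 for Hoxb6, 2.82 for Hoxb8 and 2.5 for Hoxb9. In the c cluster it was 2.52 for Hoxc5, 1.7 for Hoxc6, 2.44 for Hoxc9, 2.65 for Hoxc10, 5.65 for Hoxc11, 7.36 for Hoxc12 and 0.92 for Hoxc13, and in the d cluster 4.64 for Hoxd13. The values of Hoxa9, Hoxa11, Hoxa13 and Hoxb6 rest on 0 to 12 counts per ESC library, and Hoxa11 went to 0.13 (adjusted p = 0.781) without ESC WT replicate 2 and Hoxb6 to 1.86 (adjusted p = 1) without ESC WT replicate 1. Without ESC WT replicate 1, Hoxa9 went to 1.58 (adjusted p = 0.616) and Hoxc5 to 1.21 (adjusted p = 0.434), and without ESC WT replicate 3 Hoxb8 went to 1.75 (adjusted p = 0.125). Of 16 alternatives, the call was lost in 13 for Hoxa9, 12 for Hoxc5, 10 for Hoxc10, 8 for Hoxc9, 4 for Hoxc13, 2 each for Hoxa11 and Hoxa13, and 1 each for Hoxa7, Hoxb4, Hoxb6, Hoxb8 and Hoxc6. The value for Hoxc12 is a fitted one from a group without counts (EB WT) and is no bound. The effects on Hoxb9, Hoxc11, Hoxc12 and Hoxd13 were called under every alternative run.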

How the results depend on the processing

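Each comparison was recomputed with DESeq2, library size without TMM, no filter, a replicate block and each library left out. For KD against WT in EBs 31 members were called with all of these, except 32 without EB WT replicate 2, while fitting all 12 libraries gave 27. In ESCs 0 were called with all of these, and 1 in the fit of all 12 libraries, where the cause was not tested. EBs against ESCs gave 34 to 36 called members in WT cells (36 with the main settings) and 35 to 37 in KD cells (35 with the main settings). For the interaction of knockdown and stage, against 16 with the main settings, 15 were called by DESeq2, 14 by library size and 14 without a filter. Leaving out 1 library gave 10 to 14 (10 without ESC WT replicate 1), with fewer samples in each fit. With the replicate number as a block, 31, 0, 35, 35 and 13 members were called in the 5 comparisons in this order, but same-numbered libraries share only a number. No member changed direction while called. Over all genes, KD against WT in ESCs called 97, and 36 with library size, 266 with the block, 1030 with DESeq2, 1769 without a filter and 1999 when the 4 groups were fitted together. Most members had under 22 counts in every ESC library, so small differences between ESC groups were not detectable at this depth.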
